A study of Mus musculus with 6 samples.

Results

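LINE elements, long interspersed repeats that copy themselves through RNA, carried 414 of the 17901 H3K9ac peaks measured in mouse lung endothelial cells. A peak was counted as a LINE peak where the authors' deposited annotation of its position names an element of the LINE class. H3K9ac, acetylation of lysine in the tail of histone H3, marks active promoters and enhancers, and was profiled by CUT&RUN, in which a nuclease releases the DNA under an antibody-bound mark for sequencing. The libraries were 3 from WT mice, labelled Cre-negative, and 3 from CSE-KO mice, labelled Cre-positive, which lack cystathionine gamma-lyase, an enzyme that makes cysteine. They were compared to ask how loss of this enzyme alters the mark at endothelial loci. The sources used here do not give the promoter that drives Cre, the strain, the age or any pooling of animals, and do not say that libraries of a group are separate animals, so p-values measure only the spread between libraries, which may be technical. No peak was assigned to Cth, the gene of the missing enzyme, so the target does not check the labels. In bulk libraries, fewer cells with the mark and less of the mark per cell cannot be told apart.

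A full-length L1 holds a promoter in its 5′ end, an RNA-binding protein and an enzyme with endonuclease and reverse transcriptase activity. Most copies in a genome are cut short and cannot move. In mice the L1Md subfamilies are the youngest, and the A, T and Gf subfamilies contain copies that can still move, while F subfamilies are older. Lx, L1_Mus, L1_Mur and L1VL names mark older L1 of rodents, and L1M and HAL1 names mark still older L1 shared among mammals. L2, CR1 and RTE-X are ancient families with no mobile copies in mice. L1 is usually held silent by DNA methylation and by H3K9 methylation, a modification of the same residue that H3K9ac occupies.

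Of the 414 LINE peaks, 347 lay in L1, 55 in L2, 9 in CR1 and 3 in RTE-X. The L1 peaks divided into 151 L1Md, 88 rodent L1 and 108 other L1, the last group holding the L1M and HAL1 names. Within L1Md, 64 peaks were named L1Md_A, 61 L1Md_T, 18 L1Md_F2, 4 L1Md_F3 and 4 L1Md_Gf. The older peaks were spread over many names, with 23 names among the rodent L1 and 51 among the other L1. The annotation assigns a peak by its centre, and all LINE peaks were intronic (191) or intergenic (223) by the same annotation.

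Most LINE peaks lay away from gene starts, but some reached over one. The DNA at such starts is shown because no other sequence overlapping LINE peaks was at hand. Stretches cut around a start can lie partly outside the peak or outside the element. RefSeq windows on GRCm38.p6, from 250 bases before to 50 after a start, overlapped 18 LINE peaks in 21 windows, and the start itself lay inside 16 of these peaks. L1Md contributed 1 of the 18, at Dnajc24. The first window below starts Ctla2a, which encodes an inhibitor of cysteine proteases. It lies at chr13:60936517-60936816, minus strand, wholly inside a peak centred in an Lx9 element. The second starts Lpin3, a lipin that makes diacylglycerol from phosphatidate, at chr2:160880420-160880719, plus strand, with 212 of its bases in a peak centred in an L2a element. The third starts the long noncoding RNA gene Gm30706, at chr12:81807299-81807598, minus strand, wholly inside a peak nearest to Map3k9. It alone of the windows with a start inside the peak also holds the peak's centre, which the annotation places in an Lx5c element. Capitals mark matches on either strand to AGGAAG, a core bound by ETS factors, and to TGANTCA, the site of AP-1. The start is base 251 of each window.
Ctla2a: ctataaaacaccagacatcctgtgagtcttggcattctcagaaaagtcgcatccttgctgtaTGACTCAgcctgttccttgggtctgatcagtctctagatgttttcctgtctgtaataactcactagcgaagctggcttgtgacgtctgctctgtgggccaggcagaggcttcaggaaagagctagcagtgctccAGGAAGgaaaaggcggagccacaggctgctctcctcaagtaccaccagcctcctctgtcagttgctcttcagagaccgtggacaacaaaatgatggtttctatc
Lpin3: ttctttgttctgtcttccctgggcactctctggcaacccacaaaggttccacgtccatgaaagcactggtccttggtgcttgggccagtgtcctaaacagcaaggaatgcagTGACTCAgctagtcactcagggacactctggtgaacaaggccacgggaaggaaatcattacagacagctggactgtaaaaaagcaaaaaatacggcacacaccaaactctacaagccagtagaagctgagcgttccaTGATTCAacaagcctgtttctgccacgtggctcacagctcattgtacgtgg
Gm30706: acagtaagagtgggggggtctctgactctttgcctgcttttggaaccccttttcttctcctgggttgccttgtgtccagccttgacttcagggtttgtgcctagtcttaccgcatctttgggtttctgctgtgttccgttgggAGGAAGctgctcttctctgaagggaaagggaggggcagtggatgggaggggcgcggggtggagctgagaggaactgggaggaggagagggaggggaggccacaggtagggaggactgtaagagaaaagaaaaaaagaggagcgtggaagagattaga

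Both motifs occurred in the Ctla2a window, the Lpin3 window held 2 matches to TGANTCA, and the Gm30706 window held 1 match to AGGAAG. Matches to the different motifs shared no bases in any window. AGGAAG was found in 12 of the 21 windows and in 35.4% of the 32851 RefSeq windows of this length. TGANTCA was found in 3 of 21 and in 7.81% of all windows, TATAAA, the TATA box, in 5 and in 13.6%, and AAGATGGC, a site of YY1, in 1 and in 2.75%. Some of the 21 windows overlap each other, so these counts are not independent. Matches were counted over whole windows, also where a window reaches outside its peak, as at Arhgap25 with 14 bases inside. At Ctla2a the peak (chr 13, 60935237 to 60937091) averaged 149 ± 8.58 CPM over WT libraries and 123 ± 35.9 over CSE-KO libraries (SD, n = 3 each). CPM are counts scaled to a common library size (TMM). Its log2 fold change, CSE-KO against WT, was -0.31 (SE 0.19, adjusted p = 0.78, edgeR). At the Gm30706 start the peak had 24.3 ± 19.6 and 15.4 ± 3.70 CPM.

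Total counts over all peaks ran from 313610 to 676056 in WT and from 679938 to 1173016 in CSE-KO libraries, so every CSE-KO library was deeper. All 10 endothelial marker genes fixed for the check had a peak, and 6 had one at the promoter, with a summed level of 847 to 869 CPM in WT and 749 to 838 in CSE-KO. This sum was lower in every CSE-KO library than in every WT library, and its part in the results was not tested. The endothelial markers Kdr, Erg, Cldn5 and Sox17 had no promoter peak. Any peak was listed for 5 of 10 epithelial, 1 of 10 leukocyte and 1 of 10 fibroblast or mural markers. Promoter peaks were listed for 0 of 10 leukocyte markers (among them Ptprc, Cd3e and Csf1r), for 0 of 10 fibroblast and mural markers (among them Col1a1 and Pdgfrb), and for 1 of 10 epithelial markers, Krt18. The Krt18 level was 10.1 to 23.1 CPM in WT and 1.73 to 8.96 in CSE-KO, and its part in the results was not tested. Epcam and the surfactant gene Sftpc had no promoter peak.

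The young L1Md peaks were short and mostly far from gene starts, with 34 of 151 in introns. Their median length was 335 bp, against 497 bp for rodent L1, 618 bp for other L1, 888 bp for L2 and 749 bp for the 12705 other intronic and intergenic peaks, called other distal peaks below. The median distance from the centre to the nearest start was 126692 bp for L1Md, 32422 bp for rodent L1, 26384 bp for other L1 and 22333 bp for L2. More than 100 kb from a start lay 58.3% of L1Md peaks, 16.3% of older L1 peaks, 5.45% of L2 peaks and 9.66% of other distal peaks. Conversely, 9 of 55 L2 peaks and 8 of 196 older L1 peaks were centred within 1 kb of a start. These shares describe the peaks and were not tested.

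**Figure D1:**
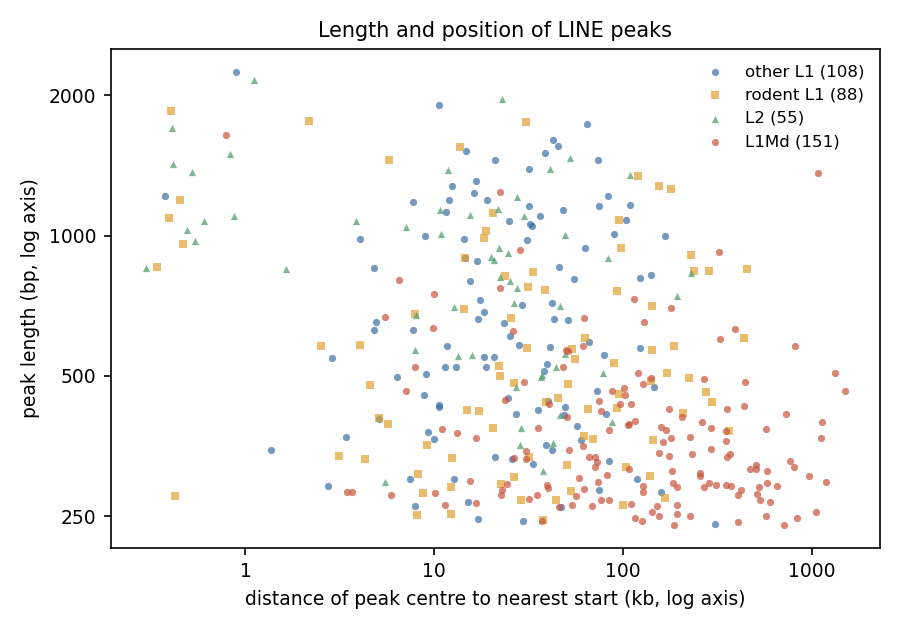
Each point is a LINE peak, by the distance of its centre to the nearest transcription start (x, kb, log axis) and its length (y, bp, log axis), coloured by subfamily group. L1Md points gather at the lower right, with a median length of 335 bp and a median distance of 126692 bp, while the L2 points are longer, with medians of 888 bp and 22333 bp.

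By chromosome, L1Md peaks took a larger part than peaks as a whole did on several chromosomes, among them 1, 6, 14 and X. Chromosome 1 held 11.3% of L1Md peaks and 6.27% of all peaks, and X held 5.96% and 1.61%. Chromosome 6 held 8.61% and 5.39%, and chromosome 14 held 6.62% and 3.73%. The number of L1Md copies on each chromosome was not taken into account. All 9 LINE peaks on X were L1Md. Chromosome 11 held 1.32% of L1Md peaks and 7.40% of all peaks.

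Per peak, tested LINE peaks had a lower mean H3K9ac level than other distal peaks, and their shorter length went with this. The mean log2 CPM of tested LINE peaks lay below that of other distal peaks in 6 of 6 libraries, by 0.42 ± 0.10 (SD, n = 6 libraries; two-sided exact sign-flip permutation test, p = 0.031, which is the lowest 6 libraries allow, and 0.047 adjusted over 3 comparisons). Against peaks in SINE elements, short interspersed repeats of any family, the mean log2 difference was -0.39 ± 0.11 (n = 6 libraries; exact test, p = 0.031, adjusted 0.047). Against peaks in LTR elements other than the MuLV-int provirus it was 0.048 ± 0.088 (exact test, p = 0.22). On the log2 scale per kb of peak, the difference from other distal peaks was -0.084 ± 0.10 (exact test, p = 0.094) and from SINE peaks -0.077 ± 0.11 (exact test, p = 0.094). These tests measure the spread over libraries for fixed sets of peaks, not the spread over peaks. The level per length was set after the data were seen.

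Older L1 and L2 peaks had like median levels per length in both groups, while the L1Md median was lower in CSE-KO. The median WT level was 45.1 CPM per kb for L1Md, 45.0 for older L1, 49.5 for L2 and 51.5 for other distal peaks. In CSE-KO the medians were 34.1, 44.6, 49.4 and 51.9 CPM per kb. The small families, not tested, had medians of 53.8 in WT and 47.6 CPM per kb in CSE-KO for the 9 CR1 peaks and of 34.6 and 47.7 for the 3 RTE-X peaks.

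Of the 8 most abundant LINE peaks, 7 lay in L2, CR1 or other L1 elements. The Lpin3 peak (chr 2, 160880508 to 160881874; L2a, intron 1) had 204, 191 and 143 CPM in the WT libraries and 185, 187 and 167 CPM in the CSE-KO libraries, in the order of replicates 1 to 3 that is kept below, and the groups overlapped. The peak in intron 2 of Bcl2l1, which encodes the survival protein BCL-XL (chr 2, 152804712 to 152806672; L2a), had means of 161 ± 3.61 and 161 ± 7.01 CPM (WT, then CSE-KO, SD over 3 libraries each, as for every such pair below). Ltbp3, a latent TGF-beta binding protein gene, carried an L3 element of the CR1 family in intron 2 (chr 19, 5742003 to 5744141; 168 ± 23.2 and 168 ± 18.6 CPM). First introns of Arhgap25, a Rac GTPase-activating protein gene, of Mtmr12, a myotubularin-related gene, and of Syncrip, an RNA-binding protein gene, carried L2, L2a and L1M4b peaks with WT means of 148, 139 and 139 CPM. Their centres lay 1114, 826 and 893 bp from the start. The Lpin3 and Syncrip peaks held the start of their gene, so signal at such peaks may belong to the promoter and not to the element. An intergenic HAL1M8 peak near Gm4285 had 169 ± 21.4 and 183 ± 17.6 CPM. The log2 fold changes of these 7 peaks lay between -0.022 and 0.083.

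The densest peak of the table was a LINE peak of another kind. A peak of 251 bp in intron 3 of Abca17, an ATP-binding cassette transporter gene (chr 17, 24342801 to 24343051), annotated as Lx7, held 837 CPM per kb, rank 1 of 17901. It was also the LINE peak with the highest mean CPM. It had 75.7, 195 and 198 CPM in the WT libraries, against 223, 293 and 276 CPM with the enzyme deleted. All CSE-KO libraries were above all WT libraries, with WT replicate 1 far below the other WT libraries. The log2 fold change was 0.80 (SE 0.19, edgeR adjusted p = 0.11). Without WT replicate 1 it was 0.41 (adjusted p = 0.53), while without WT replicate 2 (0.95, adjusted p = 0.039) or WT replicate 3 (1.10, adjusted p = 0.041) it passed. It also passed among peaks with a mean count of 50 or more (adjusted p = 0.019) and with voom (0.034), and with DESeq2 the adjusted p was 1.00, the highest over the alternatives.

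The next 3 LINE peaks by CPM per kb were L1Md, and 2 of them are among the most abundant L1Md peaks. A 277 bp L1Md_F2 peak in intron 10 of Cntnap5b, a neuronal contactin-associated protein gene (chr 1, 100180119 to 100180395), held 342 CPM per kb, rank 3. A 464 bp L1Md_T peak in intron 1 of its relative Cntnap5c (chr 17, 57855975 to 57856438) held 275 CPM per kb, rank 6. Young L1 copies can be near-identical, and the sources used here do not say how reads that map to several places were counted, so the level at a single L1Md copy is uncertain.

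L1Md peaks held a varying share of the counts from library to library, and the share of older LINE peaks varied little. Over all 151 L1Md peaks, the share of counts was 0.241%, 0.407% and 0.369% in the WT libraries, against 0.189%, 0.308% and 0.263% in the CSE-KO libraries. WT replicate 1 lay below CSE-KO replicates 2 and 3, so the groups overlapped. The mean was 0.339% ± 0.087 for WT libraries and 0.253% ± 0.060 for CSE-KO libraries (SD, n = 3 each), 0.748 times the WT share, and the difference of -0.0856 percentage points did not pass (exact permutation test, two-sided, p = 0.30, adjusted over 5 tests 0.50, where 3 against 3 cannot go below 0.10). With 1 library left out in turn the difference ran from -0.135 without WT replicate 1 to -0.0515 without WT replicate 2.

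Depth moved with this share. The library with the lowest share, CSE-KO replicate 1, was the deepest, with 1173016 counts, and the one with the highest share, WT replicate 2, was the shallowest, with 313610. WT replicate 1 (676056 counts) and CSE-KO replicates 2 and 3 (679938 and 685131) had like depths, with shares of 0.241%, 0.308% and 0.263%. The part of depth in the result was not tested. Other short peaks varied less, with a highest share 1.07 times the lowest. The 1309 distal peaks outside repeats that were no longer than the median L1Md peak held 1.85%, 1.88% and 1.79% of counts in WT and 1.92%, 1.92% and 1.91% in CSE-KO, where every CSE-KO library was above every WT library.

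**Figure D2:**
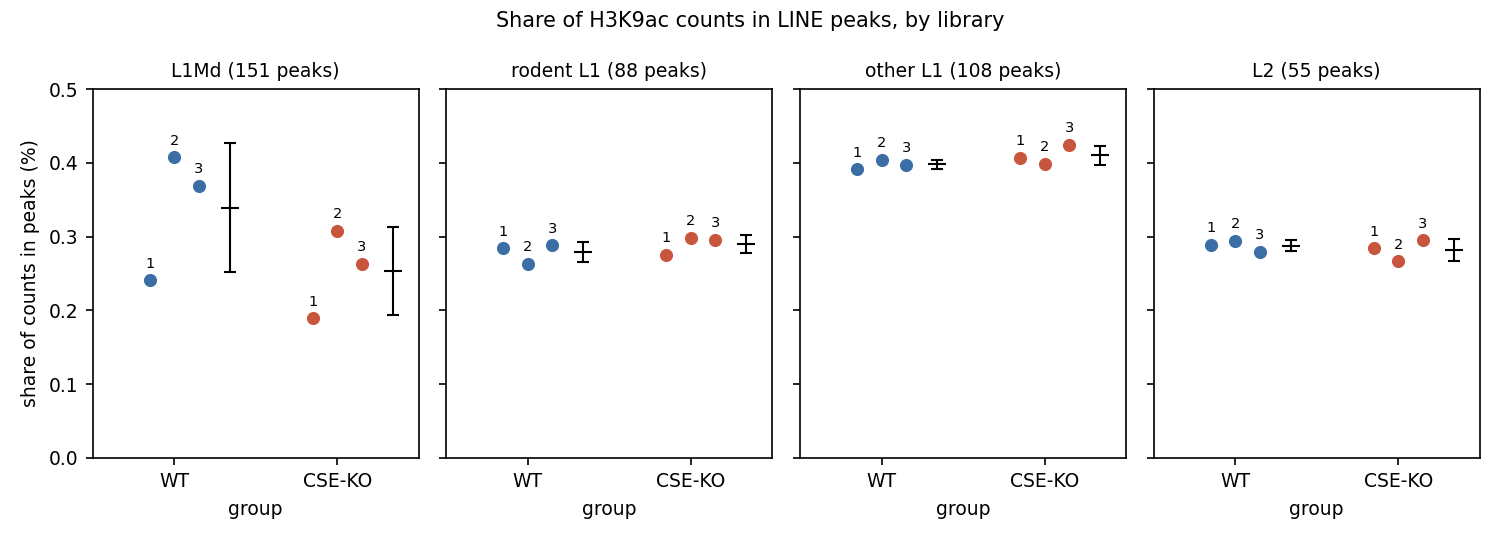
Share of all counts in peaks (y, %) held by 4 groups of LINE peaks, by library, with replicate numbers beside the points and the mean ± SD of 3 libraries as a bar. The L1Md share runs from 0.189% to 0.407% and its groups overlap, while the rodent L1, other L1 and L2 shares stay within narrow ranges.

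The highest share was 2.15 times the lowest over the 6 libraries for L1Md, 1.13 times for rodent L1, 1.08 times for other L1 and 1.11 times for L2. The 3 large L1Md subfamilies had the same order of means. L1Md_A held 0.141% ± 0.040 in WT and 0.103% ± 0.026 in CSE-KO, L1Md_T 0.126% ± 0.035 and 0.0911% ± 0.027, and L1Md_F2 0.0525% ± 0.014 and 0.0408% ± 0.0051. For each of the 3, CSE-KO replicate 1 was the lowest library. Of the 150 L1Md peaks with 1 lowest library, 66 were lowest in CSE-KO replicate 1 and 34 in WT replicate 1, which is 44.0% and 22.7%. Over all peaks, CSE-KO replicate 1 was the lowest at 12.8% and WT replicate 1 at 16.8%.

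All LINE peaks together held 1.35% ± 0.091 and 1.28% ± 0.070 of counts (n = 3 each; exact permutation test, p = 0.40, adjusted 0.50). L1 held 1.02% ± 0.086 and 0.953% ± 0.071 (exact test, p = 0.40, adjusted 0.50), and L2 held 0.287% ± 0.0074 and 0.282% ± 0.014 (exact test, p = 0.70, adjusted 0.70). LINE peaks other than L1Md held 1.01% ± 0.0048 and 1.03% ± 0.027. The mean log2 CPM of LINE peaks minus that of other distal peaks was -0.36 ± 0.09 in WT and -0.47 ± 0.09 in CSE-KO (exact test, p = 0.30, adjusted 0.50). With L1Md left out it was -0.30 ± 0.02 and -0.32 ± 0.04, a difference of -0.016 in place of -0.12 (exact permutation test, p = 0.60). L1Md minus older L1, a comparison added after the data were seen, was -0.12 ± 0.36 in WT and -0.56 ± 0.34 in CSE-KO (exact permutation test, two-sided, p = 0.20). By library it was -0.53, 0.13 and 0.036 in WT and -0.91, -0.23 and -0.55 in CSE-KO, with WT replicate 1 between CSE-KO libraries. With no filter, which brings in the L1Md peaks of lowest count, it was -1.03, -0.24 and -0.40 in WT and -1.29, -0.62 and -0.93 in CSE-KO (exact permutation test, p = 0.30), below 0 in every library.

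Single LINE peaks were tested in a fit of all peaks. The filter on low counts passed 295 LINE peaks, of which 68 were L1Md, 71 rodent L1, 94 other L1, 52 L2, 7 CR1 and 3 RTE-X. It removed 83 of 151 L1Md peaks, which had a median count of 8.67 per library. Of the 295, 1 fell and none rose (edgeR adjusted p under 0.05), where 0.0868% of all 16134 tested peaks were called, 0.062% lower and 0.0248% higher. DESeq2 called 0 of the 295. At an unadjusted p under 0.05, 24 LINE peaks were lower in CSE-KO and 12 higher, with 4.07% and 3.01% of all tested peaks as the background. The groups did not overlap at 31 of the 295, with CSE-KO lower, and at 14, with CSE-KO higher, against 6.9% and 6.09% of all tested peaks.

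More L1Md peaks had lower than higher values in CSE-KO. Over all 151 in a fit with no filter, 111 had a fitted log2 fold change below 0, and the median was -0.42, where 49.7% of all peaks were below 0. At 21 of the 151, all CSE-KO libraries were below all WT libraries, and at 0 all were above, where over all peaks the background was 6.91% lower and 6.48% higher. In that fit 24 of the 151 (15.9%) were lower at an unadjusted p under 0.05 (edgeR) and 0 higher. Over all 17901 peaks 806 (4.50%) were lower and 534 higher. The filter can pass a peak on high values in 1 group alone, so the peaks that passed it are not an even sample. Of the 68 that passed the filter, 13 (19.1%) were lower at an unadjusted p under 0.05 and 0 higher, against 4.07% and 3.01% of all tested peaks, with a median of -0.46 (median of all tested peaks -0.00034). This median was -0.30 without CSE-KO replicate 1 and -0.65 without WT replicate 1. The share of 19.1% became 31.1% (32 of 103) without WT replicate 1, 23.3% (21 of 90) without CSE-KO replicate 2, 12.4% (11 of 89) without WT replicate 3 and 11.1% (11 of 99) without CSE-KO replicate 1. Over all peaks the shares in those 4 fits were 4.32%, 4.05%, 3.83% and 3.16%. The 1309 short distal peaks outside repeats had a median count of 8.83 per library, and 515 of them passed the filter. Of these 515, 34 were lower and 10 higher at an unadjusted p under 0.05 (edgeR), so lower calls were also the more frequent there. Their median log2 fold change was 0.061, and 46.0% were fitted below 0, against 77.9% of the 68 L1Md peaks. L1Md peaks of 1 subfamily may share reads, so the L1Md peaks are not independent.

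Older L1 and L2 peaks were spread about 0. Of 165 tested older L1 peaks, 8 were lower and 10 higher at an unadjusted p under 0.05, where 4.07% and 3.01% of all tested peaks were, with a median log2 fold change of 0.021. Of 52 L2 peaks 3 were lower and 2 higher by that threshold, with a median of -0.0051 and the same background. The CR1 median over 7 peaks was -0.036, and the RTE-X median over 3 peaks was 0.62, with 0 of 3 below 0 and none at an unadjusted p under 0.05. Tested SINE peaks had a median of 0.036 and LTR peaks other than MuLV-int 0.0029.

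**Figure D3:**
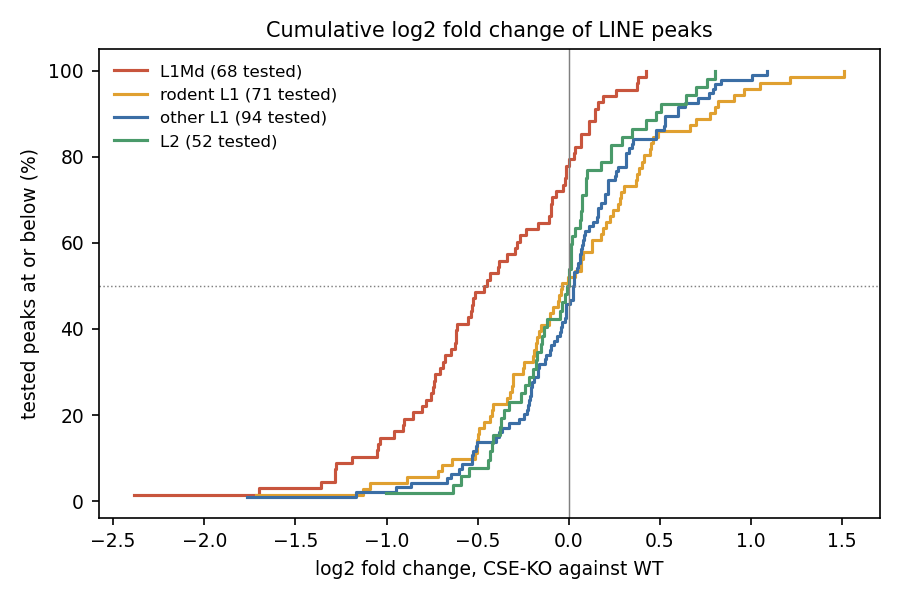
Percent of tested peaks (y) at or below each log2 fold change of CSE-KO against WT (x), for 4 groups of LINE peaks. The L1Md curve, over the 68 peaks that passed the filter, crosses 50% at -0.46, and the curves of rodent L1, other L1 and L2 cross it at -0.035, 0.025 and -0.0051.

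The peak that fell was an L1Md_T peak in intron 6 of Immp2l, a mitochondrial inner membrane peptidase gene (chr 12, 41777930 to 41778316). The deposited annotation assigns it to Lrrn3, whose start is 292066 bp away, and intron 6 is the last of that transcript. The WT libraries had 63.6, 69.3 and 85.7 CPM, and the CSE-KO libraries 9.50, 37.3 and 25.1 CPM. The groups did not overlap, and CSE-KO replicate 1 was the lowest. The log2 fold change was -1.70 (SE 0.34, edgeR adjusted p = 0.019). It did not pass without WT replicate 3 (-1.55, adjusted p = 0.35), CSE-KO replicate 1 (-1.22, 0.51) or CSE-KO replicate 3 (-1.78, 0.12), with the Wald test of DESeq2 (0.13), and when MuLV-int peaks were removed before fitting (0.051). Neither input DNA nor genotypes were analysed here, so less of the mark and absence of this L1 copy cannot be told apart.

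Other LINE peaks with low values in CSE-KO did not pass the adjusted test. An L1Md_T peak in intron 18 of Lrch1, a leucine-rich repeat gene (chr 14, 74782733 to 74783140), assigned to Esd, had 19.7, 36.3 and 20.2 CPM in WT and 3.46, 5.97 and 4.44 CPM in CSE-KO. These values rest on few reads, with raw counts of 13, 11 and 12 in WT and 4, 4 and 3 in CSE-KO. The groups did not overlap, and the fitted difference was -2.38 on the log2 scale (SE 0.59, edgeR adjusted p = 0.13). An intergenic L1_Mus3 peak assigned to Ccdc90b (chr 7, 92463683 to 92464622) had 62.1, 92.4 and 63.8 CPM in WT and 34.6, 32.8 and 31.1 CPM in CSE-KO, a difference of -1.09 on that scale (SE 0.29, edgeR adjusted p = 0.22). The CSE-KO libraries were close to each other and below all WT libraries. An intergenic L1Md_T peak on chromosome 1 (48414304 to 48414551), 830189 bp from the start of C230029F24Rik, had 31.5 ± 7.60 and 12.3 ± 2.16 CPM. An Lx8b peak in intron 5 of Sema3a, the gene of a guidance protein that acts through neuropilins (chr 5, 13499036 to 13499299), had 21.0 ± 1.85 and 6.60 ± 2.81 CPM. Its raw counts were also low, with 13, 7 and 12 in WT and 4, 5 and 6 in CSE-KO. An intergenic L2a peak near 2310069B03Rik (chr 6, 82909026 to 82909795) had 55.9 ± 14.2 and 27.6 ± 11.9 CPM. The adjusted p of the last 3 was 0.45 to 0.49 (edgeR).

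The LINE peaks at which every CSE-KO library was above every WT library were all in elements other than L1Md. Those with the smallest unadjusted p, besides Abca17, are given here. An intergenic Lx5c peak 14892 bp from the start of Myct1, a gene expressed in endothelium (chr 10, 5608410 to 5608831), had 25.7, 9.90 and 25.2 CPM in WT and 37.1, 64.2 and 54.7 CPM in CSE-KO. All CSE-KO libraries were above all WT libraries, and the log2 fold change of 1.21 did not pass (SE 0.36, edgeR adjusted p = 0.37). An L1_Mur3 peak in intron 39 of Epg5, an autophagy gene (chr 18, 78026088 to 78026661), had 13.4 ± 1.70 and 28.04 ± 1.65 CPM. Its raw counts were 10, 4 and 7 in WT and 32, 20 and 18 in CSE-KO. An L2c peak near Tomm5, a subunit gene of the mitochondrial import pore (chr 4, 45132954 to 45133750), had 37.9 ± 9.55 and 60.2 ± 7.76 CPM. In intron 2 of Rin3, a Rab5 exchange factor gene, an L1MC3 peak (chr 12, 102319270 to 102320370) had 60.2 ± 13.7 and 89.5 ± 7.93 CPM. An L1ME3C peak near the matrix gene Fbln2 (chr 6, 91202007 to 91202439) had 10.1 ± 8.74 and 25.3 ± 5.21 CPM, with raw counts of 10, 0 and 9 in WT and 26, 21 and 15 in CSE-KO. The adjusted p of the last 4 was 0.64 to 0.68 (edgeR).

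The most abundant L1Md peaks did not share one direction. The Cntnap5c peak had 95.4, 175 and 186 CPM in WT and 82.9, 104 and 121 CPM in CSE-KO (-0.55 on the log2 scale, SE 0.21, edgeR adjusted p = 0.60), and replicate 1 was the lowest library of each group. The Cntnap5b peak had 106 ± 32.4 and 83.7 ± 11.7 CPM. An L1Md_A peak 1081686 bp from Sntg1 (chr 1, 8217509 to 8218873) had 22.7, 106 and 138 CPM in WT and 51.0, 52.2 and 62.1 CPM in CSE-KO (-0.64 on the log2 scale, edgeR adjusted p = 0.70). It passed without WT replicate 1 (-1.18, adjusted p = 0.043) and was at -0.0066 without WT replicate 3. An L1Md_A peak near Dcaf12l2 on X (44442273 to 44442714) had 67.4 ± 37.4 and 52.2 ± 6.85 CPM. An L1Md_T peak near Tecrl (chr 5, 83795380 to 83795863; 56.4 ± 16.5 and 72.5 ± 6.02 CPM) and an L1Md_F3 peak in intron 17 of Rptor, a subunit gene of mTORC1 (chr 11, 119855958 to 119857198; 90.3 ± 24.4 and 104 ± 5.90 CPM), had higher CSE-KO means.

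**Figure D4:**
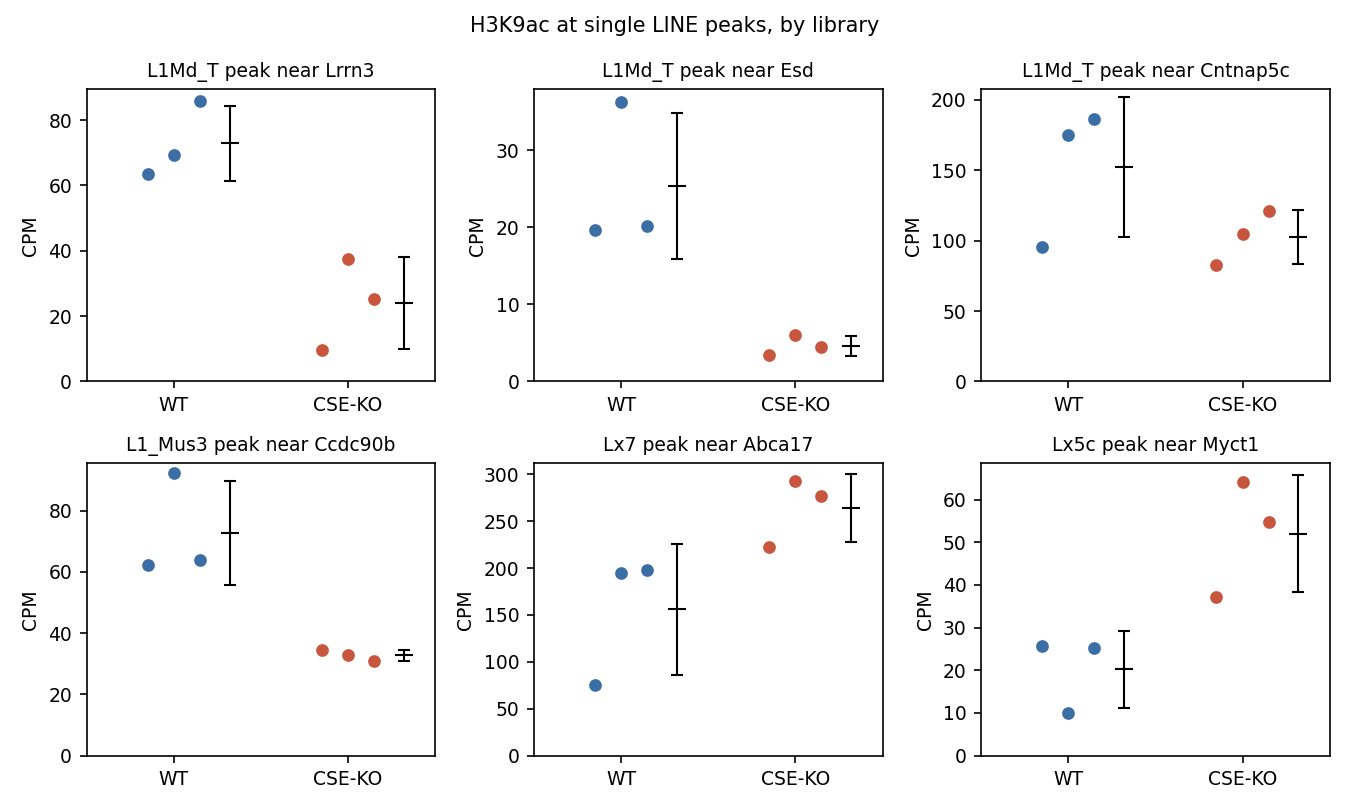
CPM (y) by library at 6 LINE peaks in WT (blue) and CSE-KO (red), with mean ± SD of 3 libraries beside the points and each panel's axis starting at 0. The groups do not overlap at the Lrrn3, Esd, Ccdc90b, Abca17 and Myct1 peaks and overlap at Cntnap5c, and of the 6 the Lrrn3 peak alone passed the adjusted test.

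Of 76 listed endothelial genes, 2 were the nearest gene of a LINE peak. They account for 0.483% of LINE peaks, where 1.17% of all peaks were nearest to a listed gene. An L4_C_Mam peak of the RTE-X family lay 13384 bp from the start of Adgrl4, an endothelial adhesion receptor gene (chr 3, 151424184 to 151424812), and had 12.1, 36.3 and 16.8 CPM in WT and 31.97, 32.8 and 25.1 CPM in CSE-KO (0.62 on the log2 scale, SE 0.43, edgeR adjusted p = 0.80). The groups overlapped through WT replicate 2. An L1M4 peak 89246 bp from Meox2, an endothelial homeobox gene (chr 12, 37018790 to 37019798), had 72.7, 62.7 and 67.2 CPM in WT and 57.0, 50.7 and 47.3 CPM in CSE-KO (-0.39, SE 0.26, edgeR adjusted p = 0.80), without overlap. The most abundant of the other small-family peaks was an L3b peak of the CR1 family, in intron 1 of 4922502B01Rik (chr 8, 109155637 to 109156609), with 72.0 ± 18.3 and 71.6 ± 10.7 CPM. An L4_C_Mam peak near Eml4 (chr 17, 83315224 to 83315996) had 24.7 ± 18.6 and 28.9 ± 9.93 CPM.

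No promoter peak of a listed gene that silences or restricts L1 passed the test. Of 50 such genes 35 had a promoter peak and 34 were tested, of which 0 rose and 0 fell over all peaks (edgeR, smallest adjusted p = 0.60, also 0 with DESeq2 and 0 with voom), with 1 lower and 1 higher at an unadjusted p under 0.05, where 4.07% and 3.01% of all tested peaks were. The median log2 fold change was -0.047, against -0.018 over 7638 tested promoter peaks, and 18 of 34 were below 0, where 53.1% of those promoter peaks were. Ercc4, an endonuclease subunit of the XPF complex that limits L1 insertion, had 81.4 ± 9.15 and 120 ± 10.8 CPM (0.54 on the log2 scale, SE 0.21). The H3K9 methyltransferase genes Suv39h2 and Suv39h1 had opposite signs, with 31.5 ± 9.77 and 14.3 ± 8.65 CPM (-1.06, SE 0.45) and 29.5 ± 18.03 and 50.04 ± 3.1 CPM (0.64, SE 0.33). Setdb1, the methyltransferase recruited by TRIM28, was at 0.53 (SE 0.33), Zc3hav1, an antiviral RNA-binding protein gene, at 0.25 (SE 0.17), and Mphosph8, a subunit gene of the HUSH complex, at -0.30 (SE 0.21).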

How the data were processed

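Per the submitters' processing notes, the tools included STAR 2.7.11a, Trimmomatic 0.39, featureCounts, DESeq2 1.36.0 and Picard 3.1.1, with no order or settings. The sources used here do not name the peak caller or say whether libraries were pooled for it. Raw counts of reads per peak and library, deposited by the authors in 1 table, were the only values used. The headers of its normalized columns, not used here, give WT and CSE-KO libraries different numeric prefixes, so group and any such batch cannot be told apart. The notes name mm39, but the implied start of the nearest gene lay within 100 bp of its position on GRCm38.p6 for 66.8% of 17634 matched peaks, so coordinates are given as deposited, on GRCm38.

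Counts of all peaks were fitted with edgeR 4.0.16 in R 4.3.3 (TMM scaling, filterByExpr at 10 counts, glmQLFit and glmQLFTest, two-sided), with Benjamini-Hochberg adjustment over 16134 tested peaks and a threshold of 0.05. SE were taken from the F statistic. Log2 CPM used a prior count of 2. The fit was tested on simulated data. Values per library were compared with exact permutation tests. A promoter peak is the most abundant one of a gene within 1 kb of its start or annotated as promoter. Named LINE peaks are called peaks, the 8 highest by mean CPM, up to 6 in each direction by unadjusted p without overlap, the 6 highest L1Md, the 4 highest L2, up to 2 of each smaller family and those nearest to a listed endothelial gene. For the L1 silencing list the 6 promoter peaks with the smallest unadjusted p are named. The Ctla2a and Gm30706 peaks fall outside this rule; they were picked for the starts they hold, once values had been seen. The members and lists were chosen with earlier results of these data known. Alternatives were other scalings and filters, DESeq2 1.42.0, voom (limma 3.58.1), a replicate block, and each library left out.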

Additional observations from a re-analysis of the deposited data

How the results depend on the processing

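The group differences in the 4 shares and in the LINE-minus-distal level kept their direction under every alternative run, except the L2 share. None passed, but with so few libraries per group the exact tests could not reach the threshold of 0.05 in any run. These tests therefore cannot decide whether the groups differ. With 1 library left out, the difference in percentage points ran from -0.117 to -0.0251 for LINE, -0.111 to -0.021 for L1, -0.012 to 0.0023 for L2 (the highest without CSE-KO replicate 2) and -0.135 to -0.0515 for L1Md, and the LINE-minus-distal difference ran from -0.16 to -0.064 on the log2 scale and was -0.016 with L1Md left out. Against other distal peaks the LINE level ran from -0.44 to -0.38, against SINE peaks from -0.42 to -0.35 and against LTR peaks from 0.023 to 0.075, where 5 libraries cannot go below an exact p of 0.0625. Per kb of peak the first pair were -0.084 and -0.077. Against LTR peaks the value was -0.042 with no filter and 0.15 with L1Md left out (exact permutation test, p = 0.031).

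The count of called LINE peaks, 1, was 0 with DESeq2, 0 without MuLV-int peaks, 2 with voom and between 0 and 2 with 1 library left out. Deviations of same-numbered libraries correlated at 0.065, 0.014 and 0.0051, and 2 of 6 libraries correlated best with their own number. The L1Md share had the same order in both groups, lowest in replicate 1 and highest in replicate 2. Whether the replicate numbers pair the libraries at L1Md peaks was not tested. A fit with the replicate block called 2 LINE peaks, Lrrn3 and Abca17. For the shares, the mean of the paired differences equals the difference of the group means by construction. The exact sign-flip p was 0.25 for LINE, L1 and L1Md, the lowest that this pairing allows, and 0.75 for L2.

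Of the uncalled peaks named, 10 turned sign when 1 library was left out. The log2 fold change ran from -0.15 (without WT replicate 3) to 0.15 (WT 1) for Lpin3, from -0.11 (CSE-KO 2) to 0.081 (WT 3) for Ltbp3, from -0.030 (CSE-KO 2) to 0.034 (CSE-KO 1) for Bcl2l1, from -0.052 (CSE-KO 2) to 0.13 (CSE-KO 3) for Arhgap25 and from -0.048 (WT 1) to 0.26 (WT 3) for Mtmr12. It ran from -0.19 (CSE-KO 3) to 0.15 (CSE-KO 1) for Syncrip, from -0.0059 (WT 2) to 0.30 (WT 1) for Rptoros (in Rptor), from -0.57 (WT 1) to 0.18 (WT 2) for Dcaf12l2, from -0.21 (WT 2) to 0.11 (WT 1) for D030068K23Rik (in 4922502B01Rik) and from -0.30 (WT 1) to 1.12 (WT 3) for Eml4. At a mean count of 50 or more Ltbp3 was 0.0074 and Bcl2l1 0.030, with library size alone Bcl2l1 was 0.020, and with voom Syncrip was -0.011. The cause was not tested. Of the L1Md peaks, 83 of 151 had too few counts to test.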
